A study of Mus musculus with 282 samples.

Results

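Dbp, Tef and Hlf, the 3 PAR bZIP transcription factors, their relative Nfil3 and the DEC factors Bhlhe40 and Bhlhe41 were followed in mouse liver across time of day, feeding schedule, loss of the clock and inhibition or activation of the kinase mTOR. The 6 genes were chosen by symbol, and all 6 were present among the 15907 gene symbols in both deposited tables. The mutant mice lacked the clock activator Bmal1, whose symbol is Arntl, in every tissue (BMKO), or lacked Tsc1 (TSKO) or Raptor (RPKO) in the liver. BMKO livers are set against wild-type (WT) livers, and TSKO and RPKO livers against livers of Albumin-Cre (AC) control mice. Albumin-Cre acts in hepatocytes, so a gene removed by it remains in the other cells of the liver. Tsc1 restrains the growth-regulating kinase complex mTORC1, and Raptor is a subunit of it.

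WT mice without injection were fed arrhythmically, ad libitum or only at night. BMKO and WT mice, all night-fed, received rapamycin (an mTORC1 inhibitor), vehicle or no injection, and TSKO, RPKO and AC mice were night-fed and uninjected. Arrhythmically fed WT mice received AZD8055, an inhibitor of the mTOR kinase itself, at dawn or at dusk, or no injection, so drug and injection cannot be told apart there. These 13 arms have 3 libraries at each of zeitgeber time (ZT, hours after lights on) 2, 6, 10, 14, 18 and 22. In 3 further arms all mice were WT and received tunicamycin, which blocks N-glycosylation and stresses the endoplasmic reticulum. They were arrhythmically fed with AZD8055 at dusk, arrhythmically fed without it, or night-fed, with 4 libraries at each of ZT 4, 10, 16 and 22. All mice were male C57BL/6J, and the 282 libraries are labelled as biological replicates and are taken as separate mice. The sources used here give neither ages nor doses.

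Reads came from the 3' ends of polyadenylated transcripts of whole liver tissue, so fewer cells of a type and less RNA per cell cannot be told apart. Libraries held 0.706 to 14.3 M (mega) reads in the first table (13 arms) and 4.85 to 10.1 M reads in the tunicamycin table, and 3 libraries had under 3 M reads. Levels are given in RPM, the reads of a gene per M reads of its library after rescaling. In TSKO livers Tsc1 had a median of 7.59 RPM (3.83 to 11.3), against 15.2 RPM (9.54 to 22.9) in AC livers. Rptor, the gene for Raptor, had a median of 4.56 RPM (2.72 to 9.35) in RPKO livers, against 8.75 RPM (6.95 to 11.7) in AC livers. Arntl gave 5.88 to 16.3 RPM in uninjected BMKO livers and 0.175 to 26.5 RPM in uninjected WT livers. Reads from a 3' end can lie outside a deleted part of a gene and do not check the deletion. All 5 hepatocyte markers (Alb, Apoa1, Ttr, Cps1 and Serpina1c) were detected in every arm.

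PAR bZIP proteins activate genes through D-box elements, and Nfil3, which lacks their activation domain, competes for the same elements as a repressor. In the mouse clock, Dbp and the DEC genes are driven through E-boxes by CLOCK and BMAL1, and Nfil3 is repressed by the REV-ERB receptors. In mouse liver the PAR bZIP factors are known for daily control of detoxification enzymes, and the DEC proteins for binding E-boxes as repressors. Dbp (protein-coding, chr7:45705100-45710203 in GRCm38.p6), Tef (chr15:81802673-81826863), Hlf (chr11:90336535-90390917), Nfil3 (chr13:52967209-52982878), Bhlhe40 (chr6:108660629-108666925) and Bhlhe41 (chr6:145858243-145865420) are all annotated in that build.

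Promoter windows of RefSeq for GRCm38.p6, 250 bases before to 50 after each annotated start, were given for 5 of the 6 genes, with a pair of starts for Tef. They were searched on both strands for the E-box CACGTG, for the D-box TTATGTAA or TTACGTAA and for the nuclear receptor core motif AGGTCA, which REV-ERB receptors also bind. An E-box lay in both Tef windows, beginning 127 and 138 bases before the start, and in the Bhlhe41 window, beginning 153 bases before the start. The Nfil3 window held AGGTCA on its other strand (read as TGACCT), beginning 12 bases before the start. Of 32851 windows of this kind, 7.15% held the E-box, 1.06% the D-box and 16.3% AGGTCA. No D-box was found in the 6 windows, and the Dbp and Hlf windows held none of these letters, which says nothing of elements elsewhere in the genes. The stretches before the start are printed for the 3 windows with an E-box and for Nfil3, with the motif in capitals, because Tef and Bhlhe41 peaked within hours of Dbp and Nfil3 ran opposite to them. They lie at chr15:81802423-81802672 and chr15:81811164-81811413 (plus strand) for Tef, chr6:145865421-145865670 (minus strand) for Bhlhe41 and chr13:52981040-52981289 (minus strand) for Nfil3.
Tef, first start: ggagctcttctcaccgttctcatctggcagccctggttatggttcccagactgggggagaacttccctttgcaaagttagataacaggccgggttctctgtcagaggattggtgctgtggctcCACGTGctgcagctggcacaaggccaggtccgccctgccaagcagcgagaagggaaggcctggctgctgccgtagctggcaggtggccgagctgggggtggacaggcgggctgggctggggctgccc
Tef, second start: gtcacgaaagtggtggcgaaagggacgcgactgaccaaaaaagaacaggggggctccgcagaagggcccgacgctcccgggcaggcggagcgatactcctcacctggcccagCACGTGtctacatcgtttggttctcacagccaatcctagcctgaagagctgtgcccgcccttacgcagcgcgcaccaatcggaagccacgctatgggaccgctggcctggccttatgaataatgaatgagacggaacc
Bhlhe41: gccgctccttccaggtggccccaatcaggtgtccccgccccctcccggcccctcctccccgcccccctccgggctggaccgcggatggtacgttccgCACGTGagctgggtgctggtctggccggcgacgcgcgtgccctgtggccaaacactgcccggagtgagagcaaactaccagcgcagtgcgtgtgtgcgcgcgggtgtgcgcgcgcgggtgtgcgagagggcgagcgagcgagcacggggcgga
Nfil3: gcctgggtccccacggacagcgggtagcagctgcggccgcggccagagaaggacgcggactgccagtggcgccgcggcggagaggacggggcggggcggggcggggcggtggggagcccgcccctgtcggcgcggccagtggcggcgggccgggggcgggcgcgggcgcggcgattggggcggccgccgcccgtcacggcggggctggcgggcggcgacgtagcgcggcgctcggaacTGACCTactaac

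In uninjected night-fed WT liver all 6 genes were rhythmic by limma's joint test of 24 h cosine and sine terms with Benjamini-Hochberg adjustment, where 22% of 12417 tested genes were called. Amplitudes are given from the daily mean to the fitted peak on the log2(RPM + 0.5) scale, with standard errors (SE). Dbp, the activator with the steepest rhythm, averaged 108 ± 22.9 RPM at ZT 10 and 1.07 ± 0.10 RPM at ZT 2 (SD, n = 3 each), with an amplitude of 3.14 ± 0.16 and a peak at ZT 10.03 ± 0.19. Its relative Tef had an amplitude of 1.40 ± 0.07 and peaked at ZT 11.8 ± 0.19. Hlf, the third activator, had an amplitude of 0.56 ± 0.10 and peaked at ZT 13 ± 0.67. Among the repressors, Bhlhe41 peaked first, at ZT 9.12 ± 0.25, with an amplitude of 1.95 ± 0.13. Bhlhe40 peaked at ZT 14.4 ± 0.37 with an amplitude of 0.83 ± 0.08. Nfil3 stood opposite to the activators, with a peak at ZT 21.3 ± 0.30 and an amplitude of 1.08 ± 0.08.

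Across the 13 arms with Bmal1, tunicamycin arms included, Dbp, Tef, Nfil3 and Bhlhe41 were rhythmic in 13 of 13, Bhlhe40 in 12 and Hlf in 10. The shares of all tested genes called rhythmic were 24.5% in TSKO, 17.5% in RPKO and 23.3% in AC livers. They were 5.03% in WT livers with rapamycin, 15.6% with vehicle and 17.2% under ad libitum feeding. With tunicamycin they were 21.2% under arrhythmic feeding with AZD8055, 7.52% under arrhythmic feeding and 15% under night feeding. Bhlhe40 missed the threshold in uninjected arrhythmically fed liver (amplitude 0.33 ± 0.15, limma adjusted p = 0.324, background 8.07%). Hlf missed it there (0.22 ± 0.10, limma adjusted p = 0.338), with AZD8055 at dawn (0.39 ± 0.12, limma adjusted p = 0.0613, background 21.5%) and with AZD8055 at dusk (0.11 ± 0.08, limma adjusted p = 0.556, background 20.0%). Over arms where each gene was rhythmic, amplitudes ranged from 2.50 to 3.80 for Dbp, 0.74 to 1.78 for Tef, 0.37 to 1.10 for Hlf, 0.42 to 1.11 for Nfil3, 0.54 to 1.11 for Bhlhe40 and 0.70 to 1.95 for Bhlhe41.

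The activators kept an order in time. Tef peaked after Dbp in 13 of 13 arms, by 0.45 to 2.21 h (median 1.74 h), and in 11 of these the lag was over 2 SE. Hlf peaked after Tef in 8 of the 10 arms where both were rhythmic, by a median of 1.15 h (range -0.21 to 1.92 h), with 5 lags over 2 SE and none over 2 SE the other way. Dbp peaked after Bhlhe41 in 11 of 13 arms, by a median of 0.82 h (range -1.37 to 2.13 h), with 5 lags over 2 SE and none over 2 SE against. Arms of a feeding or injection set are separate mice, but the lags within an arm come from the same libraries.

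**Figure D1:**
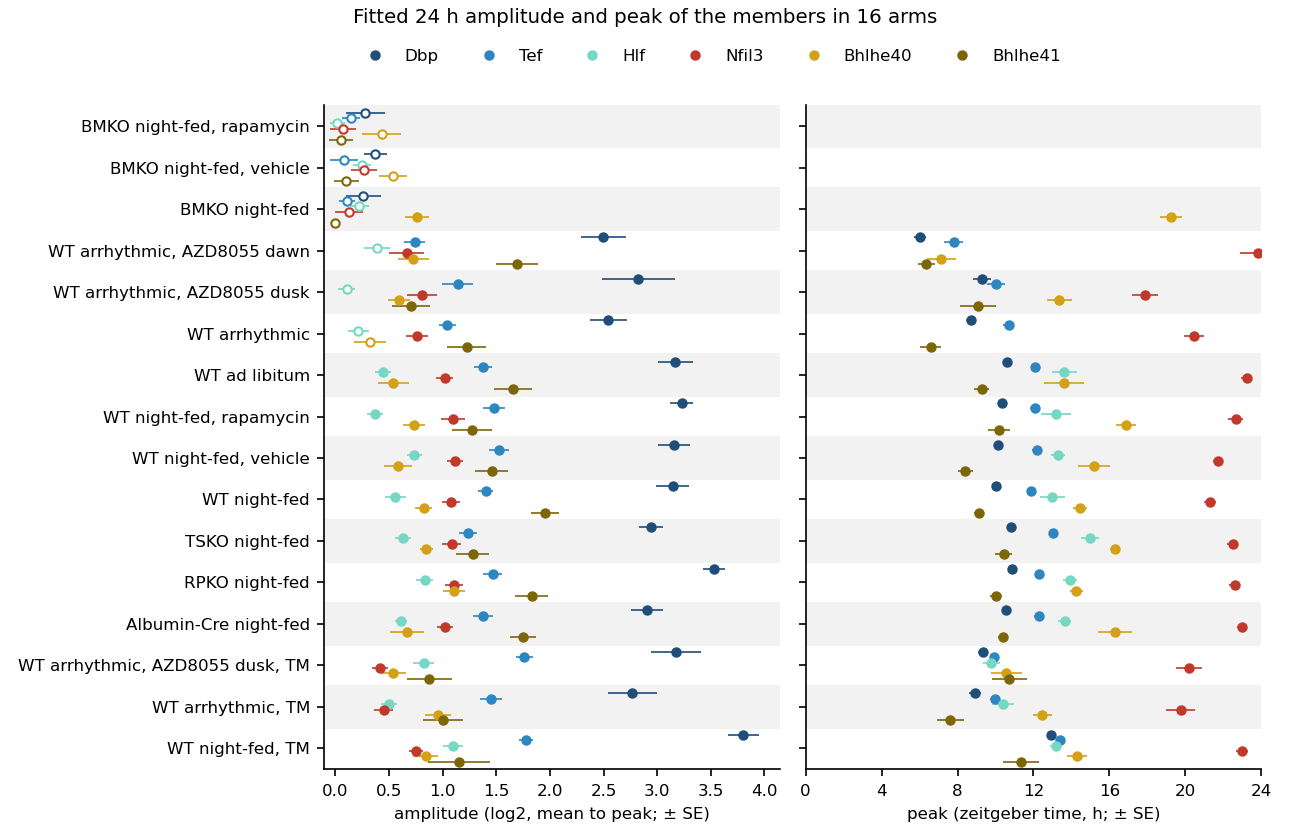
Fitted 24 h amplitude on the log2(RPM + 0.5) scale (left) and peak in zeitgeber time (right) of the 6 genes in each of the 16 arms, as estimates with SE bars. Filled symbols mark rhythms with a limma adjusted p below 0.05, open symbols the others, and peaks are drawn only for the filled ones. TM is tunicamycin. Dbp amplitudes lie between 2.50 and 3.80 in arms with Bmal1, and in BMKO arms only Bhlhe40 without injection is filled.

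Daily mean levels were ordered over the 13 arms of the first table, beside the SD within times. Dbp ran from 2.57 ± 1.09 RPM in BMKO livers with rapamycin to 41.7 ± 9.02 RPM in RPKO livers (SD, n = 18). Its gap between the highest BMKO arm (4.85 ± 2.10 RPM) and the next arm, AZD8055 at dawn (25.3 ± 16.1 RPM), exceeded the larger SD, as did the gap between BMKO livers with rapamycin and BMKO livers with vehicle (4.03 ± 0.83 RPM). Bhlhe41 ran from 0 in uninjected BMKO livers to 6.77 ± 2.08 RPM in TSKO livers, and its only gap over the larger SD lay between BMKO livers with vehicle (0.08 ± 0.10 RPM) and WT livers with rapamycin (2.77 ± 1.41 RPM). No neighbours in the order of Tef, Hlf, Nfil3 or Bhlhe40 lay further apart than the larger SD. Tef ranged from 72.5 to 115 RPM, Hlf from 38.6 to 71.7 RPM, Nfil3 from 15.1 to 26.5 RPM and Bhlhe40 from 28.9 to 60.1 RPM.

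Without Bmal1, Bhlhe41 was nearly absent, Dbp stayed at low levels, Tef lay between its WT trough and peak, and Nfil3 lacked its daytime trough. No rhythm of these 4 genes was called there in the main fits. Bhlhe41 had 0 reads in all 18 uninjected BMKO libraries, 151.96 M reads together, against 453 reads among 105.4 M reads of the 18 uninjected WT libraries. With a floor of 3 reads over the arm in place of 0, the level is 218-fold lower, a value set by that floor and not a bound. It was the only 1 of 12417 tested genes with no read in that arm. Genes averaging under 1 RPM in the first table were not among those tested, and Bhlhe41 passed through the arms with Bmal1. With vehicle, BMKO livers held 14 Bhlhe41 reads and WT livers 735, a WT to BMKO ratio of 44.4 (95% exact interval 26.3 to 81.6). With rapamycin BMKO livers held 8 and WT livers 448, a ratio of 65.6 (33.0 to 153). Per M reads, BMKO livers with vehicle held 0.094 Bhlhe41 reads (95% exact interval 0.051 to 0.158) and those with rapamycin 0.047 (0.020 to 0.093). Uninjected BMKO livers held at most 0.024 by the same interval. Depth was similar without injection and with vehicle, at 151.96 M and 148.9 M reads, and the cause of this difference was not tested. These intervals cover counting error only.

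Dbp gave 8.32, 4.65 and 3.35 RPM in uninjected BMKO livers at ZT 10, against 102, 88.1 and 133 RPM in WT livers. At ZT 2 the order was the other way, with 12.2, 5.67 and 5.76 RPM in BMKO livers and 0.974, 1.18 and 1.06 RPM in WT livers. The groups did not overlap at either time. Its daily mean was lower by 1.32 ± 0.15 on the log2 scale in BMKO livers (limma adjusted p = 4.28e-12).

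Tef gave 105, 114 and 90.4 RPM in uninjected BMKO livers at ZT 10, against 241, 215 and 229 RPM in WT livers. At ZT 2 it gave 122, 106 and 92 RPM in BMKO livers, against 25.1, 31 and 22.7 RPM in WT livers. The differences of -1.15 at ZT 10 (limma adjusted p = 8.59e-05) and 2.0 at ZT 2 (limma adjusted p = 9.39e-10) left a higher daily mean, by 0.24 ± 0.10 (limma adjusted p = 0.0215). Background calls at these single times were 33.9% and 30.1%. Nfil3, the competing repressor, gave 24.3, 36 and 25.6 RPM in BMKO livers at ZT 10, against 6.73, 6.4 and 3.85 RPM in WT livers. At ZT 2 it gave 44, 22.3 and 24.1 RPM in BMKO livers, against 22.6, 21.9 and 25.3 RPM in WT livers, and the groups overlapped. The difference at ZT 10, where WT levels were lowest, was 2.26 ± 0.28 (limma adjusted p = 8.75e-10).

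With vehicle, Dbp, Tef and Nfil3 differed as follows. Dbp had 6.44, 4.44 and 5.5 RPM at ZT 10 in BMKO livers, against 121, 119 and 157 RPM in WT livers (-4.48 ± 0.38, limma adjusted p = 7.55e-16, background 4.70%). Tef had 82.7, 71.5 and 72.2 RPM at ZT 2 in BMKO livers, against 21.1, 21.6 and 25.6 RPM in WT livers (1.71 ± 0.24, limma adjusted p = 3.21e-07, background 1.51%). Nfil3 had 22.2, 18.8 and 19.5 RPM at ZT 10 in BMKO livers, against 5.13, 5.03 and 4.3 RPM in WT livers (1.96 ± 0.28, limma adjusted p = 1.76e-07). None of these groups overlapped. At ZT 2 Nfil3 had 22.3, 23.9 and 17.8 RPM in BMKO livers with vehicle, against 36, 34.4 and 26.6 RPM in WT livers with vehicle (-0.59 ± 0.28, limma adjusted p = 0.444). There the vehicle groups did not overlap and the BMKO livers were the lower, which was not called.

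**Figure D2:**
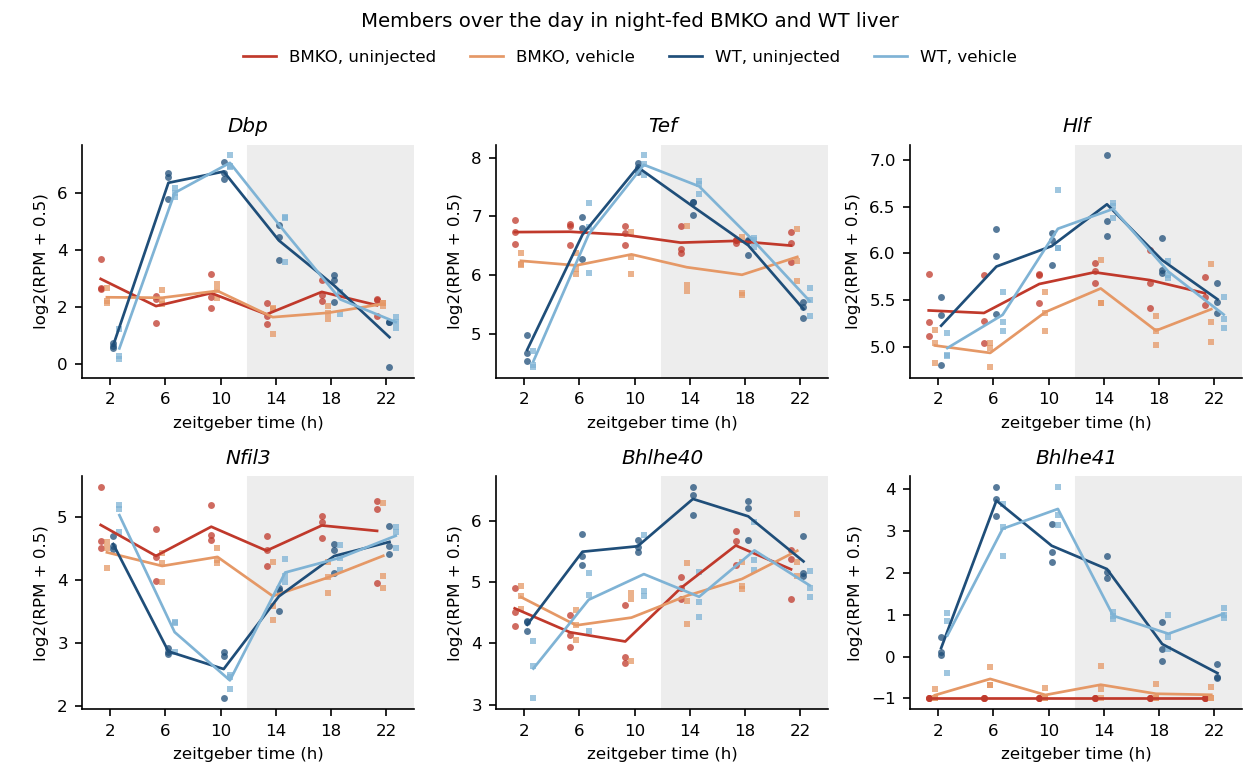
Level of the 6 genes as log2(RPM + 0.5) over zeitgeber time in night-fed BMKO and WT livers, uninjected or with vehicle. Points are single libraries, lines join the means of 3, and shading marks the dark phase. Bhlhe41 lies at the floor in BMKO livers, Dbp and Tef have no called rhythm there in the main fits, and Nfil3 in BMKO livers lies above the WT trough at ZT 10.

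Over the day, all 6 genes were called without injection, Dbp, Hlf, Bhlhe40 and Bhlhe41 lower and Tef and Nfil3 higher, but so were 72.8% of all genes. The Tef call was lost without replicate 2 (0.0665) or 3 (0.131), and that of Hlf without replicate 2, by limma. The daily mean of Hlf was lower by 0.27 ± 0.08 (limma adjusted p = 0.00303), that of Bhlhe40 by 0.78 ± 0.13 (limma adjusted p = 4.66e-07), and that of Nfil3 higher by 0.91 ± 0.11 (limma adjusted p = 6.29e-11). With vehicle, 4 were called, all lower, where 22.1% of genes were called and 12.8% were called lower. They were Bhlhe41 (-2.42 ± 0.13), Dbp (-1.53 ± 0.15), Hlf (-0.45 ± 0.08) and Tef (-0.26 ± 0.10, limma adjusted p = 0.0457). The Bhlhe41 value is set by the pseudocount of 0.5, since BMKO levels lie below it, and understates the ratio of 44.4 in reads. The call of Tef was lost with edgeR in place of limma (adjusted p = 0.0757), and with DESeq2 size factors, with no filter, or without replicate 2 or 3. Replicate 1 had the highest Tef of the BMKO libraries with vehicle at every time (82.3 to 114 RPM). The differences between the genotype effects with vehicle and without injection were called for Tef (-0.50 ± 0.14), Nfil3 (-0.67 ± 0.16) and Bhlhe40 (0.80 ± 0.19), with limma adjusted p from 0.000233 to 0.00138, where 58.0% of genes were called. Without replicate 3 that of Tef was -0.36 (limma adjusted p = 0.102). Bhlhe40 averaged 28.9 RPM without injection and 29.4 RPM with vehicle in BMKO livers. In WT livers it averaged 50.4 and 29.9 RPM, so the WT level was the one that differed. Sums of cell type markers differed between genotypes for some cell types, and not all in the same direction. The 5 hepatocyte markers summed to 24094 to 52211 RPM in uninjected BMKO livers and 65204 to 86255 RPM in WT livers, and to 30432 to 60471 RPM in BMKO livers and 62077 to 108485 RPM in WT livers with vehicle. The 5 stellate cell markers summed to 76.4 to 221 RPM in uninjected BMKO livers and 243 to 348 RPM in WT livers. With vehicle their sums overlapped, at 184 to 289 RPM in BMKO livers and 234 to 408 RPM in WT livers. Cholangiocyte markers went the other way, with median sums of 53.5 RPM in uninjected BMKO livers and 15.9 RPM in WT livers. With vehicle these were 47.0 and 22.9 RPM. Kupffer cell markers overlapped without injection, at 103 to 382 RPM in BMKO livers and 116 to 394 RPM in WT livers. Their part in these results was not tested.

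Rhythm differences were called for 5 of 6 genes without injection, against 3.03% of genes, and for 5 of 6 with vehicle, against 1.80%. Amplitudes in BMKO livers were lower by 2.88 ± 0.22 (uninjected) and 2.78 ± 0.22 (vehicle) for Dbp and by 1.29 ± 0.14 and 1.45 ± 0.14 for Tef. For Nfil3 they were lower by 0.95 ± 0.16 and 0.85 ± 0.16, and the uninjected call was lost without replicate 2 (limma adjusted p = 0.0643) or 3 (0.125). Bhlhe41 amplitudes were lower by 1.95 ± 0.18 and 1.35 ± 0.18, but edgeR on the reads, with the BMKO counts at or near 0, gave adjusted p = 1.0 and 0.909. Uninjected BMKO livers had no Bhlhe41 read, so their amplitude was fixed at 0 and the difference is the WT amplitude. Bhlhe41 is counted among the 5 in both settings, though its BMKO reads are too few to assess a rhythm. Hlf passed with vehicle (-0.49 ± 0.12, limma adjusted p = 0.0113), and uninjected it had -0.34 ± 0.12 (limma adjusted p = 0.110). The vehicle call of Hlf was lost without replicate 2 (limma adjusted p = 0.765) or 3 (0.200), and when any time pattern was tested (0.134).

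Bhlhe40 was the only member with a called rhythm without Bmal1 in the main fits. In uninjected BMKO livers it had an amplitude of 0.76 ± 0.11 and peaked at ZT 19.3 ± 0.56 (limma adjusted p = 0.00135, background 5.67%). Its BMKO levels were 13.3, 12.4 and 24.1 RPM at ZT 10 and 56.7, 38.1 and 50.5 RPM at ZT 18, with no overlap. In WT livers they were 47, 44.3 and 51.1 RPM at ZT 10 and 73, 51.1 and 79.3 RPM at ZT 18. The BMKO peak came 4.81 ± 0.92 h later than the WT peak (limma adjusted p of the rhythm difference = 0.00279). With vehicle the BMKO amplitude was 0.53 ± 0.13, peaking at ZT 20.4 ± 0.94 (adjusted p by limma 0.0553, background 5.56%), and with rapamycin 0.43 ± 0.18 (limma adjusted p = 0.554, background 0.274%). Without the replicate 2 libraries the uninjected BMKO rhythm (adjusted p = 0.172) and its difference from WT (adjusted p = 0.255) were no longer called by limma. 

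Other genes of the clock and of the PAR bZIP pathway were followed beside them. Of 16 core clock genes, 5 rose and 6 fell in daily mean without injection, where 72.8% of all genes were called. Nr1d2, a REV-ERB receptor, fell by 3.49 ± 0.17, while Npas2 rose by 2.88 ± 0.14 and Cry1 by 1.97 ± 0.10 (limma adjusted p at most 5.85e-31). With vehicle 6 rose and 5 fell, where 22.1% of all genes were called. The 10 genes tied to PAR bZIP factors in mice are enzymes and regulators of drug, heme and bile acid metabolism. Of these 2 rose and 6 fell without injection, beside the same 72.8% of all genes, with a median of -0.46 against -0.13 over all genes. With vehicle 2 rose and 4 fell, beside 22.1% of all genes, with medians of -0.42 and -0.02. Por, the reductase that supplies electrons to cytochromes P450, fell by 1.10 ± 0.13 with vehicle (limma adjusted p = 2.04e-11), and its peak came 7.48 ± 1.06 h later in uninjected BMKO livers than in WT livers (limma adjusted p of the rhythm difference = 2.29e-08). Cyp2a5 fell by 3.27 ± 0.26 without injection and by 2.31 ± 0.26 with vehicle, but reads of Cyp2a5 and the near-identical Cyp2a4 can be split between them. Alas1, the first enzyme of heme synthesis, kept a rhythm without Bmal1, with an amplitude of 1.48 ± 0.16 in uninjected BMKO livers and 2.03 ± 0.12 in WT livers.

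With rapamycin, which inhibits mTORC1, 1 of 6 daily means was called against vehicle in each genotype. These were Bhlhe40, higher in WT livers, and Dbp, lower in BMKO livers. Such shares lay near those of all genes, 18.9% and 12.0%, and both calls were lost without replicate 1. No member had a called rhythm difference against vehicle in WT livers, where 0.00% of 12417 genes were called by limma (681 at an unadjusted p below 0.05, and 0 by edgeR), or in BMKO livers, where 0.322% were. In WT livers the daily mean of Bhlhe40 was higher with rapamycin (0.49 ± 0.13, limma adjusted p = 0.00609), the only 1 of 6 called, where 18.9% of genes were. It gave 52, 78.3 and 48.8 RPM at ZT 14 with rapamycin, against 21.1, 25.2 and 35.3 RPM with vehicle. These did not overlap and are given without a test. Uninjected WT livers gave 67.3, 93.2 and 85.3 RPM at that time, so the vehicle livers lay lowest. Mean Bhlhe40 levels over the day were 50.4 RPM without injection, 41.4 RPM with rapamycin and 29.9 RPM with vehicle. At ZT 22 the values overlapped, 31.1, 49.9 and 41.2 RPM with rapamycin and 26.4, 35.6 and 29.5 RPM with vehicle. The call was lost without replicate 1 (adjusted p = 0.0516) or 2 (0.0889) by limma.

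In BMKO livers the 1 member called was Dbp, lower with rapamycin by 0.60 ± 0.15 (limma adjusted p = 0.00534), where 12.0% of genes were called. Its libraries had 0.712 to 4.60 RPM with rapamycin (median 2.68, n = 18) and 1.56 to 6.44 RPM with vehicle (median 3.90, n = 18), so the groups overlapped. In WT livers the Dbp difference was 0.23 ± 0.15 (limma adjusted p = 0.290). The effect in BMKO minus that in WT was -0.83 ± 0.22 (limma adjusted p = 0.00616, background 14.8%). Both calls rested on the replicate 1 libraries, since without them the BMKO effect was -0.27 (adjusted p = 0.275) and the difference -0.36 (adjusted p = 0.401) by limma. With rapamycin, replicate 1 had the lowest Dbp of the BMKO libraries at ZT 2, 6, 10, 18 and 22 (0.712, 1.06, 1.66, 1.85 and 1.23 RPM). At ZT 14 it was not the lowest (3.07 RPM). The fit took libraries of different times as independent, so an offset shared by a replicate number was not allowed for. Of the 10 genes tied to PAR bZIP factors, 4 fell and none rose in WT livers with rapamycin, and 1 rose and 2 fell in BMKO livers. The shares of all genes called there were 18.9% and 12.0%. Cyp2b10, a drug-metabolizing P450, fell by 2.17 ± 0.26 in WT livers (limma adjusted p = 1.47e-09) and by 2.48 ± 0.26 in BMKO livers (limma adjusted p = 2.77e-11). Hepatocyte markers summed to a median of 55184 RPM (33771 to 72019) with rapamycin in WT livers and 78647 RPM (62077 to 108485) with vehicle, and their part was not tested.

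Under arrhythmic feeding Dbp, Tef, Bhlhe40 and Bhlhe41 were higher early in the day and 3 of them peaked earlier, while no daily mean was called against night feeding (0 of 6, background 44.0%, limma). Dbp gave 4.6, 13.4 and 21 RPM at ZT 2 under arrhythmic feeding, against 0.974, 1.18 and 1.06 RPM under night feeding (2.88 ± 0.44, limma adjusted p = 0.00014). Tef gave 36.3, 61.6 and 73.9 RPM there under arrhythmic feeding, against 25.1, 31 and 22.7 RPM under night feeding (1.06 ± 0.20, limma adjusted p = 0.00182). In both genes every arrhythmically fed liver was above every night-fed liver at that time, when 3.21% of all genes were called and 1.73% were called higher. Bhlhe41 gave 2.08, 4.51 and 4.28 RPM under arrhythmic feeding at ZT 2, against 0.584, 0.883 and 0.528 RPM under night feeding (1.77 ± 0.42, limma adjusted p = 0.0135). Bhlhe40 gave 43.7, 53.6 and 37 RPM under arrhythmic feeding, against 17.9, 19.9 and 20 RPM under night feeding (1.18 ± 0.35, limma adjusted p = 0.0482), a call lost without any replicate (0.0817 to 0.338), in the joint fit of all arms (0.106), with edgeR (0.0589), with no filter or with a pseudocount of 2. Hlf was lower at ZT 14, with 60.2, 55.8 and 49.4 RPM under arrhythmic feeding and 132, 72.3 and 80.7 RPM under night feeding (-0.73 ± 0.24, limma adjusted p = 0.0400, background 11.8%), a call lost without any replicate (0.116 to 0.183).

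Rhythm differences between arrhythmic and night feeding were called for 3 of 6 genes, where 4.74% of genes were called. The peak of Dbp came 1.32 ± 0.35 h earlier under arrhythmic feeding and its amplitude was lower by 0.60 ± 0.25 (limma adjusted p = 0.0124). That of Tef came 1.15 ± 0.37 h earlier, with an amplitude lower by 0.36 ± 0.11 (limma adjusted p = 0.0140). That of Bhlhe41 came 2.54 ± 0.63 h earlier, with an amplitude lower by 0.73 ± 0.24 (limma adjusted p = 0.00342). Bhlhe40 had a loss of amplitude of similar size for its SE, -0.50 ± 0.20, and missed the threshold (limma adjusted p = 0.0576). None of the 3 calls held without the replicate 2 libraries (limma adjusted p from 0.141 to 0.254), and the ZT 2 calls of Dbp, Tef, Bhlhe41 and Bhlhe40 were lost there too (0.107 to 0.338). Without replicate 3 the rhythm calls of Dbp (0.159) and Tef (0.283) and the ZT 2 calls of Tef (0.117) and Bhlhe41 (0.128) were lost by limma, and the joint fit lost the rhythm call of Tef (0.108). Among other clock genes 3 of 16 rose and 3 fell in daily mean, where 44.0% of all genes were called, and none had a called rhythm difference. Rora rose by 0.38 ± 0.09 (limma adjusted p = 0.000634). Of the 10 genes tied to PAR bZIP factors, Alas1 had the only called rhythm difference, with an amplitude lower by 1.46 ± 0.26 (limma adjusted p = 0.000193).

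**Figure D3:**
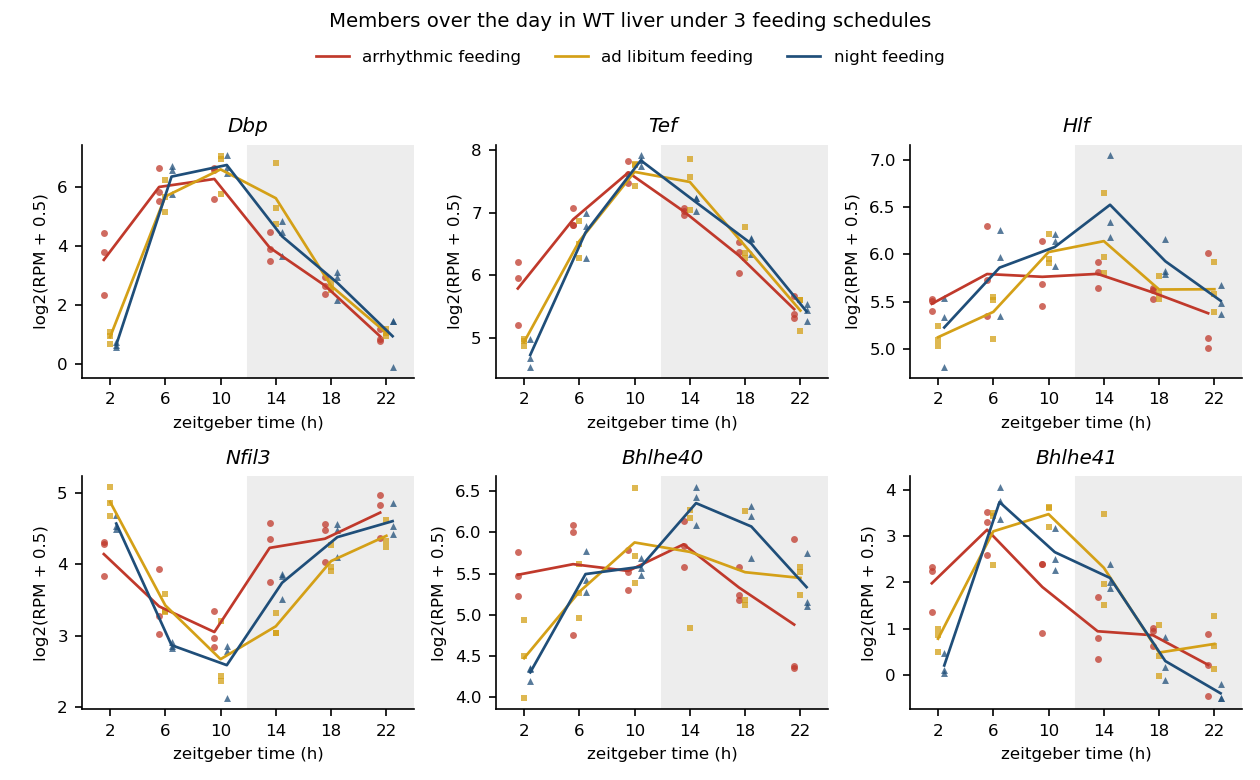
Level of the 6 genes as log2(RPM + 0.5) over zeitgeber time in uninjected WT livers under arrhythmic, ad libitum and night feeding. Points are single libraries, lines join the means of 3, and shading marks the dark phase. At ZT 2 the arrhythmically fed livers lie above the night-fed livers in Dbp, Tef, Bhlhe40 and Bhlhe41.

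Ad libitum feeding against night feeding gave no called daily mean (0 of 6, background 53.0%, limma) and no called rhythm difference (0 of 6, background 0.934%). Nfil3 came closest in rhythm, with a peak 1.93 ± 0.48 h later under ad libitum feeding (limma adjusted p = 0.0805). Its levels at ZT 14 were 9.48, 7.71 and 7.72 RPM under ad libitum feeding, against 14.1, 13.8 and 10.9 RPM under night feeding. Dbp was higher at ZT 14, with 26.3, 38.4 and 112 RPM under ad libitum feeding and 12.1, 21.5 and 28.4 RPM under night feeding (1.29 ± 0.44, limma adjusted p = 0.0360, background 17.3%). The highest of these, ad libitum replicate 3 at ZT 14, and replicate 3 at ZT 10 (54.1 RPM, beside 122 and 132 RPM) each resembled the other's time point. Without both libraries the ZT 14 difference in Dbp was 0.69 (limma adjusted p = 0.333). It was not called without replicate 2 (0.144) or in the joint fit (0.0773) by limma.

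AZD8055, given to arrhythmically fed mice, went with higher Nfil3 early in the day after dawn dosing and early in the night after dusk dosing. With AZD8055 at dawn, Nfil3 gave 50.5, 30.7 and 59.1 RPM at ZT 2, against 19.3, 19 and 13.8 RPM without it (1.37 ± 0.37, limma adjusted p = 0.0156, background 7.52%). At ZT 6 it gave 24.4, 13.1 and 37.5 RPM with AZD8055 at dawn, against 9.2, 7.61 and 14.8 RPM without it (1.14 ± 0.37, limma adjusted p = 0.0274, background 16.5%). With AZD8055 at dusk it gave 89, 68.7 and 33.3 RPM at ZT 14, against 12.9, 20 and 23.5 RPM without it (1.66 ± 0.37, limma adjusted p = 0.00151, background 17.5%). The libraries with and without AZD8055 overlapped at ZT 6, but not at ZT 2 with dawn dosing or at ZT 14 with dusk dosing. At ZT 14 with dawn dosing Nfil3 gave 22.9, 15.7 and 22.1 RPM, and at ZT 2 with dusk dosing 21.7, 25.8 and 11.8 RPM, and both groups overlapped the untreated livers. Whether the effects of dawn and dusk dosing differ was not tested. Leaving out replicate 1 ended the calls at ZT 2 (limma adjusted p = 0.120), ZT 6 (0.202) and ZT 14 (0.208), and leaving out replicate 3 those at ZT 2 (0.224) and ZT 6 (0.126).

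Dbp and Tef peaked earlier with dawn dosing. The peak of Dbp came 2.68 ± 0.60 h earlier with AZD8055 at dawn (limma adjusted p = 0.00586) and that of Tef 2.91 ± 0.75 h earlier (limma adjusted p = 0.00714), the 2 of 6 called, where 15.1% of genes were called. Dbp gave 2.41, 2.73 and 4.96 RPM at ZT 14 with dawn dosing, against 21.4, 14.3 and 10.7 RPM without it, with no overlap (-2.05 ± 0.69, limma adjusted p = 0.0449, background 11.3%). Tef gave 67.8, 55.1 and 94.3 RPM at ZT 14 with dawn dosing, against 124, 135 and 131 RPM without it (-0.87 ± 0.29, limma adjusted p = 0.0438). Both rhythm calls were lost without replicate 1 or 2, with limma adjusted p from 0.0866 to 0.131, and both ZT 14 calls with no filter on low genes (0.0511 for Dbp and 0.0501 for Tef) and with edgeR. The ZT 14 calls were also lost without replicate 1 or 2, and that of Tef without replicate 3, with limma adjusted p from 0.0826 to 0.310. Bhlhe40, which many stimuli induce, gave 68.9, 149 and 93 RPM at ZT 2 with dawn dosing, against 43.7, 53.6 and 37 RPM without it (1.15 ± 0.36, limma adjusted p = 0.0388), a call lost without any replicate (0.119 to 0.175). The daily mean of Nfil3 was the only 1 of 6 called with dawn dosing (0.39 ± 0.15, limma adjusted p = 0.0350, background 41.2%), and its call was lost without replicate 1 (adjusted p = 0.269), without replicate 3 (0.242), or without the dawn library ZT 2 replicate 1, low in Dbp (0.0502). With dusk dosing no daily mean (background 50.6%) and no rhythm difference (background 5.85%) was called by limma among the 6 genes.

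At single times with dusk dosing, Bhlhe41 gave 3.73, 3.59 and 5.47 RPM at ZT 18, against 1.51, 1.05 and 1.42 RPM without it, with no overlap (1.37 ± 0.48, limma adjusted p = 0.0406, background 19.1%), a call lost without any replicate (0.0794 to 0.237). Bhlhe40 gave 16.3, 17.1 and 34.7 RPM at ZT 2 with dusk dosing, against 43.7, 53.6 and 37 RPM without it (-1.04 ± 0.36, limma adjusted p = 0.0485, background 12.1%), a call lost without replicate 1 (0.363) or 2 (0.208), with edgeR (0.0731) and with no filter. The dusk library ZT 2 replicate 3 stood apart, with 54.6 RPM of Dbp beside 2.5 and 0.707 RPM, and 119 RPM of Tef beside 52.1 and 33 RPM. Without it a rhythm difference of Bhlhe41 was called (limma adjusted p = 0.0480). Of 16 core clock genes, 10 had a called rhythm difference with dawn dosing and 1 with dusk dosing, where 15.1% and 5.85% of all genes did. The peak of Nr1d2, a REV-ERB receptor, came 4.30 ± 0.59 h earlier with dawn dosing (limma adjusted p = 2.38e-06). Of the 10 genes tied to PAR bZIP factors 2 rose and 4 fell in daily mean with dawn dosing, and 3 rose and 3 fell with dusk dosing. The shares of all genes called there were 41.2% and 50.6%. Cyp2b10 rose by 1.77 ± 0.18 with dawn and 1.28 ± 0.18 with dusk dosing (limma adjusted p = 1.67e-10 and 1.24e-07), and Ppara, a fasting-response receptor, fell by 0.79 ± 0.14 with dawn and 1.03 ± 0.14 with dusk dosing (limma adjusted p = 2.58e-05 and 1.61e-07). Acute phase genes summed to medians of 40077 RPM (12156 to 68526) with dawn dosing and 35246 RPM (10166 to 60469) with dusk dosing, against 7138 RPM (5766 to 8857) without AZD8055, and their part in these results was not tested.

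**Figure D4:**
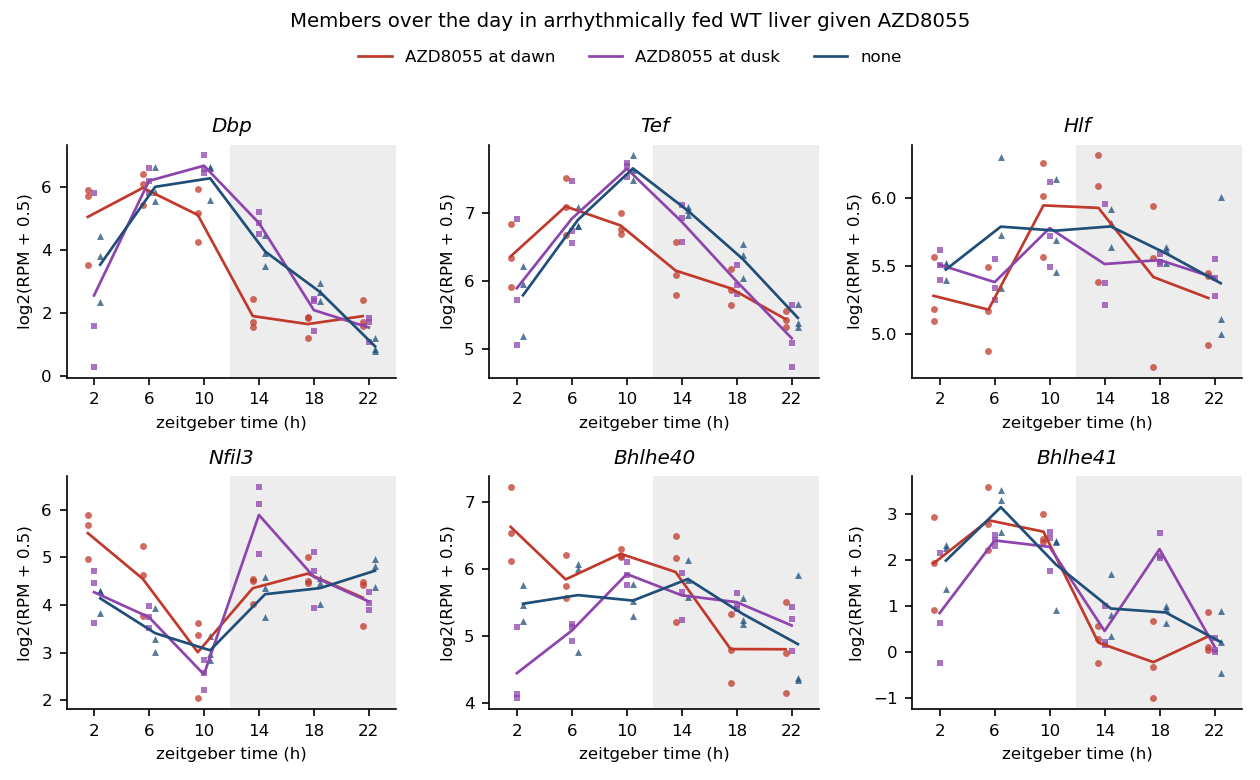
Level of the 6 genes as log2(RPM + 0.5) over zeitgeber time in arrhythmically fed WT livers with AZD8055 at dawn, at dusk or without it. Points are single libraries, lines join the means of 3, and shading marks the dark phase. Nfil3 libraries with AZD8055 all lie above those without it at ZT 2 with dawn dosing and at ZT 14 with dusk dosing.

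On the log2 scale, daily means of Nfil3, Bhlhe41 and Hlf were called higher and that of Dbp lower in TSKO than in AC livers. In RPKO livers those of Tef, Dbp and Bhlhe41 were called lower. These 4 of 6 and 3 of 6 stand beside 36.6% and 42.6% of all genes. Rhythm differences against AC livers were called for 0 of 6 genes in TSKO livers and 0 of 6 in RPKO livers. Over all 12272 genes tested limma called 0.00815% (692 at an unadjusted p below 0.05, 1 by edgeR) in TSKO livers. In RPKO livers it called 0.00% (525 at an unadjusted p below 0.05, 0 by edgeR). In TSKO livers 4 of 6 daily means were called, where 36.6% of genes were called. Nfil3 was higher by 0.33 ± 0.08 (limma adjusted p = 0.00103), Bhlhe41 by 0.54 ± 0.15 (limma adjusted p = 0.00386) and Hlf by 0.18 ± 0.07 (limma adjusted p = 0.0411), while Dbp was lower by 0.34 ± 0.13 (limma adjusted p = 0.0321). In RPKO livers 3 of 6 were called, all lower, where 42.6% of genes were called and 24.5% were called lower. These were Tef (-0.40 ± 0.09, limma adjusted p = 0.000504), Dbp (-0.35 ± 0.13, limma adjusted p = 0.0219) and Bhlhe41 (-0.37 ± 0.15, limma adjusted p = 0.0409). Dbp averaged 41.7 ± 9.02 RPM in RPKO livers and 41.1 ± 25.6 RPM in AC livers (SD within times, n = 18 each), so its lower daily mean holds on the log2 scale and not in RPM. Both knockouts are set against the same AC livers.

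At single times, Dbp gave 15, 38.7 and 14.6 RPM at ZT 6 in TSKO livers, against 51.9, 73.4 and 65.3 RPM in AC livers, with no overlap (-1.60 ± 0.31, limma adjusted p = 0.000649, background 6.27%). Tef gave 47.4, 85.4 and 44.5 RPM there in TSKO livers, against 71, 92.2 and 146 RPM in AC livers (-0.80 ± 0.23, limma adjusted p = 0.0266), and the groups overlapped. Bhlhe41 gave 2.28, 2.09 and 2.24 RPM at ZT 2 in TSKO livers, against 0.367, 0.134 and 0.529 RPM in AC livers (1.71 ± 0.37, limma adjusted p = 0.00332, background 4.04%). In RPKO livers Tef gave 18.5, 22.5 and 17.2 RPM at ZT 2, against 21.5, 30.5 and 24.1 RPM in AC livers. These groups overlapped, and their values are given without a test. Dbp gave 1.11, 1.47 and 2.03 RPM at ZT 22 in RPKO livers, against 4.1, 3.11 and 4.27 RPM in AC livers, with no overlap (-1.10 ± 0.31, limma adjusted p = 0.0139, background 9.93%). Bhlhe40 gave 55.7, 48.6 and 53.6 RPM at ZT 10 in RPKO livers, against 42.9, 9.84 and 29.5 RPM in AC livers (1.16 ± 0.29, limma adjusted p = 0.00571, background 12.4%), and without replicate 2, the low AC library, the difference was 0.61 (limma adjusted p = 0.167). Without replicate 3 it was not called either (limma adjusted p = 0.0546).

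Several of these calls were lost under other settings. The RPKO difference of Dbp at ZT 22 was lost with edgeR (adjusted p = 0.0677), and without replicate 1 (0.246) or 3 (0.0655) by limma. The Dbp daily mean was not called without replicate 1 or 3 in either knockout, with limma adjusted p from 0.0863 to 0.302. The Hlf daily mean was not called in TSKO livers without replicate 2 (0.167) or 3 (0.250), or in the joint fit of all arms (0.102), by limma. The joint fit also lost the Dbp daily mean in TSKO (0.191) and RPKO livers (0.152). At single times in TSKO livers, the call of Dbp was lost without replicate 3 (0.0783), that of Tef without replicate 1 (0.0999) or 3 (0.618), and that of Bhlhe41 without replicate 2 (0.119), by limma. The Bhlhe41 daily mean was not called without replicate 2 or 3 in TSKO livers (limma adjusted p = 0.0568 and 0.0643), and in RPKO livers it was lost without any replicate, with edgeR (adjusted p = 0.173) and with DESeq2 size factors. Of the 16 core clock genes 1 rose and 5 fell in TSKO livers, and 1 rose and 3 fell in RPKO livers. The shares of all genes called there were 36.6% and 42.6%. Per1 fell by 0.55 ± 0.15 in TSKO livers (limma adjusted p = 0.00228) and Nr1d2 by 0.40 ± 0.12 in RPKO livers (limma adjusted p = 0.00675). Of the 10 genes tied to PAR bZIP factors 2 rose and 3 fell in TSKO livers, and 1 rose and 4 fell in RPKO livers, beside the same shares of all genes. Cyp2b10 rose by 1.57 ± 0.20 in TSKO livers (limma adjusted p = 2.31e-08), as did Cyp7a1, the rate-limiting enzyme of bile acid synthesis, by 1.14 ± 0.22 (limma adjusted p = 4.22e-05).

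Under tunicamycin the activators and Nfil3 ran hours earlier with arrhythmic feeding than with night feeding. Dbp gave 4.11, 9.86, 45.6 and 26.4 RPM at ZT 4 with arrhythmic feeding, against 0.406, 0.815, 1.4 and 0.497 RPM with night feeding (3.67 ± 0.46, limma adjusted p = 1.91e-06). At ZT 16 it gave 4.97, 5.05, 5.25 and 4.58 RPM with arrhythmic feeding, against 57.1, 46.4, 47.4 and 39.7 RPM with night feeding (-3.13 ± 0.46, limma adjusted p = 2.93e-05). The groups did not overlap at either time, and 0.612% and 4.58% of 12261 tested genes were called there. Its peak came 3.99 ± 0.39 h earlier with arrhythmic feeding and its amplitude was lower by 1.03 ± 0.33 (limma adjusted p = 7.93e-09). Tef gave 46.4, 48.3, 91.1 and 84.2 RPM at ZT 4 with arrhythmic feeding, against 13.8, 14.8, 16.7 and 14.8 RPM with night feeding (2.07 ± 0.18, limma adjusted p = 6.38e-11). Its peak came 3.40 ± 0.30 h earlier (limma adjusted p = 1.14e-09). Hlf gave 20.8, 27.4, 20.7 and 24 RPM at ZT 16 with arrhythmic feeding, against 61.3, 34.9, 49.3 and 42.4 RPM with night feeding (-0.98 ± 0.19, limma adjusted p = 0.000945). Its peak came 2.79 ± 0.77 h earlier, with an amplitude lower by 0.59 ± 0.13 (limma adjusted p = 0.000381).

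Nfil3 gave 50.8, 63.8, 77.3 and 49 RPM at ZT 10 with tunicamycin and arrhythmic feeding, against 41.2, 25.6, 33.8 and 26.9 RPM with night feeding (0.91 ± 0.17, limma adjusted p = 0.00218, background 0.285%). At ZT 4 the sign was opposite, with 63.2, 72.5, 38.9 and 49.8 RPM under arrhythmic feeding and 106, 94.8, 107 and 90.9 RPM under night feeding (-0.86 ± 0.17, limma adjusted p = 0.00263). Its peak came 3.22 ± 0.81 h earlier with arrhythmic feeding (limma adjusted p = 0.00574), and this call was lost without replicate 3 (adjusted p = 0.108) or 4 (0.0541). Its ZT 10 call was lost without replicate 2 (0.106) or 3 (0.0662) and its ZT 4 call without replicate 3 (0.105) or 4 (0.0711) by limma. The rhythm call of Hlf was lost without replicate 3 (limma adjusted p = 0.0659). These 4 genes were the 4 of 6 with a called rhythm difference, where 4.36% of genes were called, and Bhlhe41 missed the threshold by limma (adjusted p = 0.182) and passed it by edgeR (adjusted p = 0.0393). No daily mean was called (0 of 6, background 0.555%), Hlf coming closest with -0.36 ± 0.09 (limma adjusted p = 0.0517). Of 16 core clock genes 9 had a called rhythm difference too, and of the 10 genes tied to PAR bZIP factors 6 did. Alas1 peaked 4.45 ± 0.61 h earlier with arrhythmic feeding (limma adjusted p = 8.16e-07) and Arntl 2.87 ± 0.34 h earlier (limma adjusted p = 2.62e-07). With AZD8055 at dusk added to arrhythmic feeding no member was called in daily mean (0 of 6, background 8.85%) or rhythm (0 of 6, background 0.0326%, 1200 of all genes at an unadjusted p below 0.05 and 4 by edgeR).

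**Figure D5:**
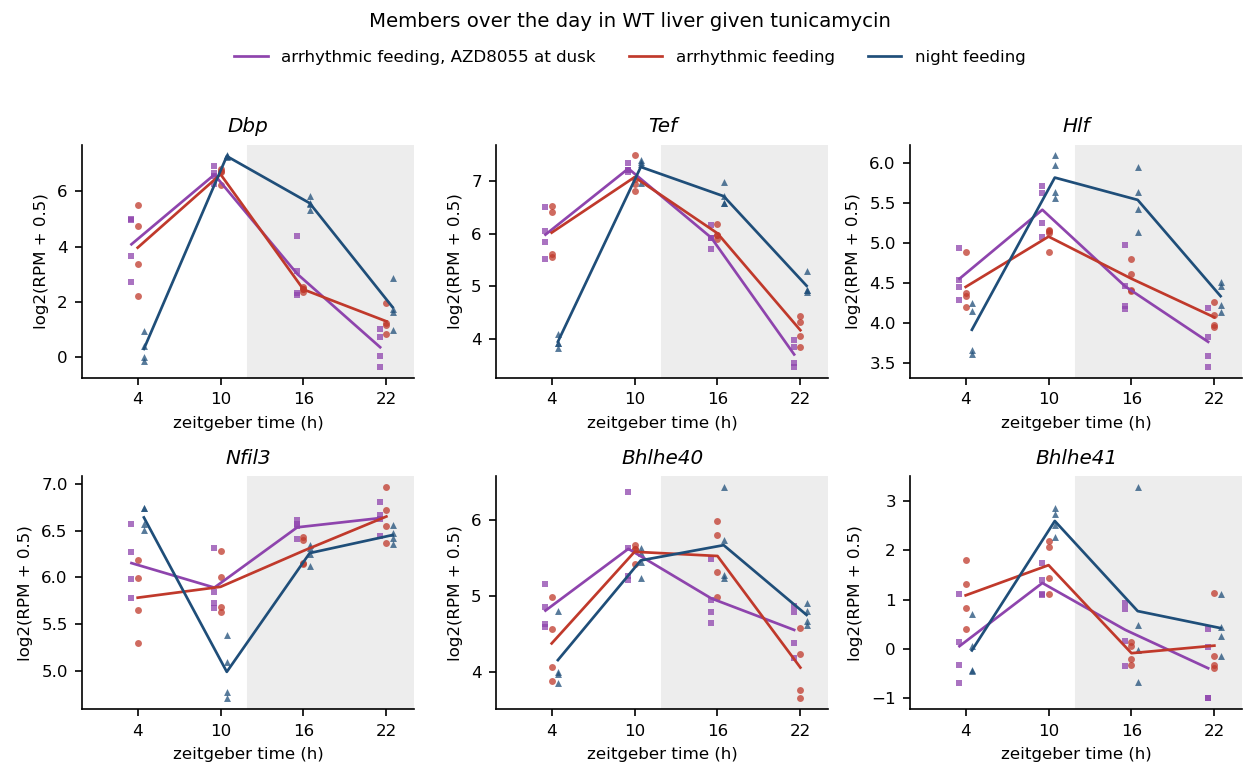
Level of the 6 genes as log2(RPM + 0.5) over zeitgeber time in WT livers given tunicamycin under arrhythmic feeding with AZD8055 at dusk, arrhythmic feeding or night feeding. Points are single libraries, lines join the means of 4, and shading marks the dark phase. At ZT 4 Dbp and Tef lie higher and Nfil3 lower in arrhythmically fed than in night-fed livers.

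Levels with and without tunicamycin come from tables that were normalized separately, and they are set side by side without a test. Under night feeding Nfil3 had 25.6 to 41.2 RPM at ZT 10 with tunicamycin and 3.85 to 6.73 RPM without it, and 81.5 to 93.7 RPM at ZT 22 with tunicamycin and 20.9 to 28.4 RPM without it. Its range over all times was 38.9 to 125 RPM with tunicamycin under arrhythmic feeding and 6.66 to 30.7 RPM without it. These ranges of Nfil3 did not overlap, and how many of all genes did the same was not counted. Sums of the 16 core clock genes did not overlap either. Under night feeding they were 608 to 1103 RPM with tunicamycin and 346 to 514 RPM without it. Under arrhythmic feeding they were 663 to 1175 RPM with it and 349 to 506 RPM without it. Hlf ranged from 11.8 to 67.7 RPM with tunicamycin under night feeding and from 27.4 to 132 RPM without it, and Dbp from 0.406 to 158 RPM with it and from 0.427 to 133 RPM without it. Feeding shifted the fitted Dbp peak by -3.99 ± 0.39 h with tunicamycin and by -1.32 ± 0.35 h without it, from 4 and 6 times of day, and this pair of shifts was not compared by a test.

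Over the 78 arm and time means of the first table, the members' levels were correlated as a description. Dbp correlated with Tef (Pearson r = 0.827) and Bhlhe41 (r = 0.823), and Nfil3 ran against Dbp (r = -0.785), the lowest correlation among pairs of the 6 genes. Tef correlated with Hlf (r = 0.638) and less with Bhlhe41 (r = 0.498), and Hlf with Bhlhe40 (r = 0.548). The genes most like Dbp were the period gene Per3 (r = 0.918), Gpr146 and the clock repressor Ciart. Those most like Tef were Per3 (r = 0.885), Usp2 and Wee1, and those most like Hlf were Fam102a (r = 0.805), Nmrk1 and Aqp11. Nfil3 was most like Lnx2 (r = 0.83), Arntl (r = 0.820) and Abtb2. Bhlhe40 had the weakest likeness, with Klf10 (r = 0.732), Slc35g1 and Noct at the top, and Bhlhe41 was most like Jade1 (r = 0.891), Nr1d2 (r = 0.866) and Slc2a5. These means share libraries, depth and time of day between genes.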

How the data were processed

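The authors' deposited values are a signal per gene and library, not whole counts. Within a library each value is a whole multiple of 1 step, and dividing by that step returned whole reads (to within 0.01 read) for 99.9% of values without tunicamycin and 100% of values with it. In RPKO libraries 196 genes, none a member, lay off the step and and fits that include RPKO livers omit them. The submitters' processing notes name STAR 2.7.3a, SAMtools and the build mm10 (GRCm38.p6), and neither the counting program nor the normalization is known from the sources used here.

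Reads were rescaled by TMM. limma 3.58.1 (R 4.3.3) with a mean-variance trend was run on log2(RPM + 0.5) over all genes averaging 1 RPM or more in the table, with a mean per arm and time. Contrasts were the daily mean, joint 24 h cosine and sine terms, and differences of these, with p-values adjusted by Benjamini-Hochberg at 0.05. Rhythms were fitted per arm, and differences within a set of arms (feeding, Bmal1 and rapamycin, liver knockouts, AZD8055, tunicamycin). Single times and the libraries doubted were chosen after the values were seen. edgeR 4.0.16 on the recovered reads and DESeq2 1.42.0 size factors were alternatives. Fits were tested on simulated data. The members, lists and tests were chosen with earlier results of these data known. Named besides the members are, for each list and comparison, the genes with the lowest adjusted p (3 at most), and the 3 genes most correlated with each member. Alas1 amplitudes in single arms were chosen after their values were seen. Replicate number was left out of the main fits, and a fit with it as a block was an alternative. Shallow libraries carry more counting error.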

Additional observations from a re-analysis of the deposited data

Results flagged for a closer look

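In 72 groups of 4 tunicamycin libraries, 1 library stood apart from the other 3 by Dixon's criterion at the 95% level in 5 groups, and chance gives about 1 in 20. These were Tef with night feeding at ZT 22 (38.9 RPM), Hlf with arrhythmic feeding at ZT 10 (29.2 RPM), Bhlhe40 with night feeding at ZT 4 (27.4 RPM), Bhlhe41 with night feeding at ZT 16 (9.22 RPM) and Bhlhe41 with arrhythmic feeding at ZT 22 (1.71 RPM).

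A difference between a pair of comparisons passed limma's test for 4 results. The rapamycin effect on Dbp in BMKO minus that in WT livers was -0.83. The BMKO effect with vehicle minus that without injection was -0.50 for Tef, 0.80 for Bhlhe40 and -0.67 for Nfil3.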

How the results depend on the processing

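Over all alternatives no result reversed. Of the values for single members 4308 kept their side of the threshold, 191 lost it and 37 gained it, and of the counts of called members 565 stayed within 1.5 times, 21 were lower and 16 higher. Daily means called numbered 1 in place of 0 for arrhythmic against night feeding with tunicamycin under DESeq2 size factors, a pseudocount of 2, edgeR, or without the night-fed library high in Bhlhe41. For arrhythmic against night feeding they numbered 1 in place of 0 under DESeq2 size factors, the joint fit of all arms or the replicate block, and for ad libitum feeding 1 in place of 0 under a pseudocount of 0.1, edgeR or the joint fit. They were 2 in place of 1 for rapamycin in WT livers at a pseudocount of 2, and 0 in place of 1 for dawn AZD8055 without 1 doubted library. The joint fit gave 2 in place of 4 for TSKO and 1 in place of 3 for RPKO. Rhythms called in BMKO livers with vehicle numbered 2 in place of 0 with the replicate block, where Bhlhe40 had an adjusted p of 0.0084 by limma, and 1 in the joint fit. Rhythm differences with dusk AZD8055 numbered 1 in place of 0 when any difference between times was tested, or without 1 doubted library. The block also called the rhythm difference of Hlf in uninjected BMKO livers (adjusted p = 0.0263 by limma), those of Bhlhe40 with vehicle (0.0346), arrhythmic feeding (0.0310) and dawn AZD8055 (0.0388), and the rhythms of Dbp in BMKO livers with vehicle (0.0369) and of Hlf with dawn AZD8055 (0.00691). It ended no call. Deviations of same-numbered libraries from their group means had a median r of 0.163 (-0.107 to 0.497) for rapamycin against vehicle in BMKO livers. For ad libitum against night feeding the median was 0.110 (-0.170 to 0.395), and in the other comparisons it lay between -0.035 and 0.089. Same-numbered libraries were thus in part alike in some comparisons, and whether the numbers mark mice handled together is not known.

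Leaving out each replicate in turn gave 1 to 3 called daily means for TSKO, 1 to 2 for RPKO, and 0 to 1 for dawn AZD8055, for rapamycin in BMKO and in WT livers, and for the difference of the rapamycin effects. Called rhythms were 0 to 1 in uninjected BMKO livers, 0 to 2 in BMKO livers with vehicle, 3 to 6 in WT livers with rapamycin, and 3 to 5 with dawn and with dusk AZD8055. Called rhythm differences were 3 to 5 for uninjected BMKO, 0 to 3 for arrhythmic feeding, 0 to 2 for dawn AZD8055 and 2 to 4 for arrhythmic feeding with tunicamycin. The cause of these changes was not tested.

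Counts over all genes moved too. Rhythms called in BMKO livers with rapamycin numbered 34, but 132 with the replicate block, 172 in the joint fit and 8 when any time pattern was tested. In BMKO livers with vehicle they were 690, 2495, 1476 and 225 in the same order, and in WT livers with rapamycin 624, 973, 1962 and 294. Uninjected BMKO livers gave 704, and 3147 in the joint fit, 366 for any time pattern and 1199 without shallow libraries. Arrhythmic feeding gave 1002, and 525 in the joint fit and 481 for any time pattern, and ad libitum feeding 2138, 837 and 1115. For any time pattern night feeding gave 1444 in place of 2735, WT livers with vehicle 948 in place of 1941, AC livers 1773 in place of 2893, TSKO livers 1740 in place of 3042 and RPKO livers 1255 in place of 2144. Rhythm differences in uninjected BMKO livers numbered 376, 878 with the block and 900 in the joint fit, and with vehicle 224, 452 and 387, and 123 for any time pattern. For arrhythmic feeding they were 589, 207 in the joint fit and 205 for any time pattern, and for ad libitum feeding 116, 36 and 23, with 189 under the block and 66 without the 2 doubted libraries. For rapamycin in BMKO livers they were 40, 231 with the block, 135 in the joint fit, 22 with no filter and 2 for any time pattern, and in WT livers 0, with 25 under the block. For dusk AZD8055 with tunicamycin they were 4, with 48 for any time pattern and 31 without the doubted library. Daily means called for rapamycin were 1491 in BMKO livers, 2644 with the block and 2510 in the joint fit, and 2350 in WT livers with 3635 under the block. The difference of the rapamycin effects gave 1842, 3100 with the block, 2899 in the joint fit and 95 without replicate 1. Daily means for arrhythmic feeding with tunicamycin gave 68, and 105 with the block. Leaving out a replicate left as few as 0 rhythms in BMKO livers with rapamycin, 13 with vehicle and 68 without injection. Depth limits the lowest levels. At similar depth, Bhlhe41 had 0 reads in uninjected BMKO livers and 14 in BMKO livers with vehicle.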
